A study of Mus musculus with 16 samples.

Results

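The genes described here are the enzymes of glycolysis, the carriers that bring glucose in and lactate out, and a group of well-known transcriptional targets of HIF-1, the factor that switches on the hypoxia programme. They are 33 named genes out of 55359 gene models in the count files, taken from a list of names. All 33 were found by gene identifier in all 16 libraries and all 33 passed the filter on low counts in both organs. RNA was measured by bulk sequencing in whole ovary and whole kidney of wild-type (WT) CBAF1 females, 21 days old. The treated group was injected intraperitoneally with 7.5 mg/kg PT-2385 every 12 h for 4 days, and the control group with the vehicle, 5% DMSO in saline, on the same schedule. Every group, controls included, also received 5 IU PMSG for 48 h and then 5 IU hCG, and organs were collected 13 h after hCG. Each of the 4 groups held 4 libraries. Ovary RNA was isolated with the Monarch column kit and kidney RNA with Trizol, so organ and isolation method cannot be told apart in any level. Whether replicates are different animals is not in the labels, so a p-value here measures only the spread between these samples, which may be technical.

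Glycolysis splits glucose to pyruvate in the cytosol, and many of its steps have several isoenzymes, encoded by separate genes, that differ between tissues. HIF transcription factors are pairs of an oxygen-labile subunit, HIF-1α (Hif1a) or HIF-2α (Epas1), and the stable partner ARNT, and they bind a short DNA core, the hypoxia response element. The glycolytic genes are classically assigned to HIF-1, and PT-2385 is an inhibitor that keeps HIF-2α from pairing with ARNT. In the ovary, gonadotrophins and the ovulatory LH surge act on follicles whose granulosa layer has no blood vessels of its own and is known for glycolysis with lactate release. Kidney proximal tubule, by contrast, is known for making glucose and for burning fuels other than glucose.

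Assigned read pairs came to between 12689770 and 43295974 per library, the lowest and the highest being kidney PT-2385 replicates 2 and 3. CPM are counts scaled to a common library size, after TMM normalisation within the organ. The granulosa cell markers summed to between 1830 and 2154 CPM in vehicle ovaries and between 1946 and 2686 CPM in PT-2385 ovaries. Foxl2, one of them, had 0 counts in every kidney library. Proximal tubule markers summed to between 18078 and 21666 CPM in kidney and to 5.63 CPM or less in 7 ovary libraries. Ovary vehicle replicate 1 held 56.2 CPM of them. The files of ovary vehicle replicate 3 and of kidney PT-2385 replicate 3 have names that depart from the pattern of their groups. Kidney and ovary libraries were kept in the groups their labels give, and results that change without one of them are given both ways.

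The members together held 0.685% ± 0.0924 of all assigned counts in vehicle ovaries and 0.773% ± 0.0289 in PT-2385 ovaries (mean ± SD, n = 4). The vehicle ovaries stood at 0.654%, 0.581%, 0.801% and 0.703%, and the PT-2385 ovaries at 0.811%, 0.754%, 0.781% and 0.748%, so the groups overlapped through vehicle replicate 3. In kidney the share was 0.684% ± 0.0314 with vehicle and 0.705% ± 0.00588 with PT-2385. Per kilobase of exon, Gapdh, which oxidises glyceraldehyde-3-phosphate, led in both organs, at 761 ± 131 RPKM in vehicle ovary and 1113 ± 107 RPKM in vehicle kidney. Aldoa, the ubiquitous aldolase, was next, at 372 ± 49.8 RPKM in ovary and 443 ± 39.6 RPKM in kidney. The lowest member in both organs was Slc2a3, the high-affinity glucose transporter GLUT3, at 3.27 ± 0.259 RPKM in ovary and 0.314 ± 0.0774 RPKM in kidney. Hk2, the inducible hexokinase, stood at 16.8 ± 3.34 RPKM in vehicle ovary and 0.771 ± 0.219 RPKM in vehicle kidney. Slc16a3, the lactate exporter MCT4, stood at 27.9 ± 6.57 RPKM in vehicle ovary and 0.676 ± 0.197 RPKM in vehicle kidney. Both genes were thus far lower in the kidney libraries, on a scale set separately in each organ.

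The region just before the start of these genes is shown for 6 of them, because the HIF core recurs there. Bnip3 and Pgk1 are members called in kidney, Slc2a1, Slc16a3 and P4ha2 are members whose ovary groups did not overlap, and Ldha is shown for its repeated palindrome. RefSeq windows of 300 bases (250 before and 50 after a start, GRCm38.p6) were matched for 30 of the 33 members. Slc2a3, Bnip3l and Ndufa4l2 had no window in the table. The core was searched as ACGTG and as GCGTG on both strands, and the palindrome CACGTG counts as an ACGTG match on each strand. Each line gives the 160 bases before the start on the strand of the gene, with capitals for either core, or for its reverse complement where the match is on the other strand.
Bnip3 (chr7:138909507-138909666, minus strand): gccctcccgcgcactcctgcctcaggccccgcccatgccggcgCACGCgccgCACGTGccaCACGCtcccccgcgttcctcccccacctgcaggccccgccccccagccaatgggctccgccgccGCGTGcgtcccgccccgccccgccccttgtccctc
Pgk1 (chrX:106186940-106187099, plus strand): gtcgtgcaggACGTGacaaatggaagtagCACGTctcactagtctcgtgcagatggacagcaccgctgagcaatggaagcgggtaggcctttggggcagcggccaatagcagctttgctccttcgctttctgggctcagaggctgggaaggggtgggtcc
Ldha (chr7:46845644-46845803, plus strand): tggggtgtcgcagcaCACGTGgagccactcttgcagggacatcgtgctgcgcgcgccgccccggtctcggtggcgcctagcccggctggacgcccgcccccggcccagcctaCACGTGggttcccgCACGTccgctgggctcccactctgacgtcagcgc
Slc2a1 (chr4:119108585-119108744, plus strand): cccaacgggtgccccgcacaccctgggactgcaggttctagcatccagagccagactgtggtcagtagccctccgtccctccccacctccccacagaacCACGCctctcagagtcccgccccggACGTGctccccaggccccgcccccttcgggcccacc
Slc16a3 (chr11:120948907-120949066, plus strand): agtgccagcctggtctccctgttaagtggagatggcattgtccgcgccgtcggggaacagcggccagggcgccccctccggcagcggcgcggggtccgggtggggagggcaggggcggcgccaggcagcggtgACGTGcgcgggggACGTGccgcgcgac
P4ha2 (chr11:54100764-54100923, plus strand): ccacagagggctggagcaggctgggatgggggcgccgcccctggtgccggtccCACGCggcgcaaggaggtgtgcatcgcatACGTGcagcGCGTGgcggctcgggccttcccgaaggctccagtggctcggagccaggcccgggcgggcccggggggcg

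Pgk1 carries 2 ACGTG cores in opposite orientation, and Ldha carries the palindrome CACGTG at 2 places and a further core near the start (of its 2 windows the first is shown). In all, 22 of 30 member genes (73.3%) held ACGTG in at least 1 window, against 21.8% of 27025 genes in the table. GCGTG was found in 21 member genes (70%), against 35.2% of all genes. At least 1 of the 2 cores was found in 28 member genes (93.3%), against 46.7%. Among genes with a single window, 14 of 19 members (73.7%) held ACGTG, against 19.4%. CACGTG was found in 4 member genes (13.3%), against 8.09%. Member windows were also richer in G and C, with a median of 63.3% against 52.7% over all windows, and both cores contain CG. Gpi1 and Tpi1, the isomerases of upper glycolysis, held neither core in their windows. The 22 genes with ACGTG had a median log2 fold change with PT-2385 of 0.19 in ovary and 0.08 in kidney, and the 8 without it 0.23 and −0.05. These matches are letters in a window and not measured binding. Members were listed partly as well-known targets of HIF-1, so their share of cores is not independent of how the list was chosen.

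**Figure D1:**
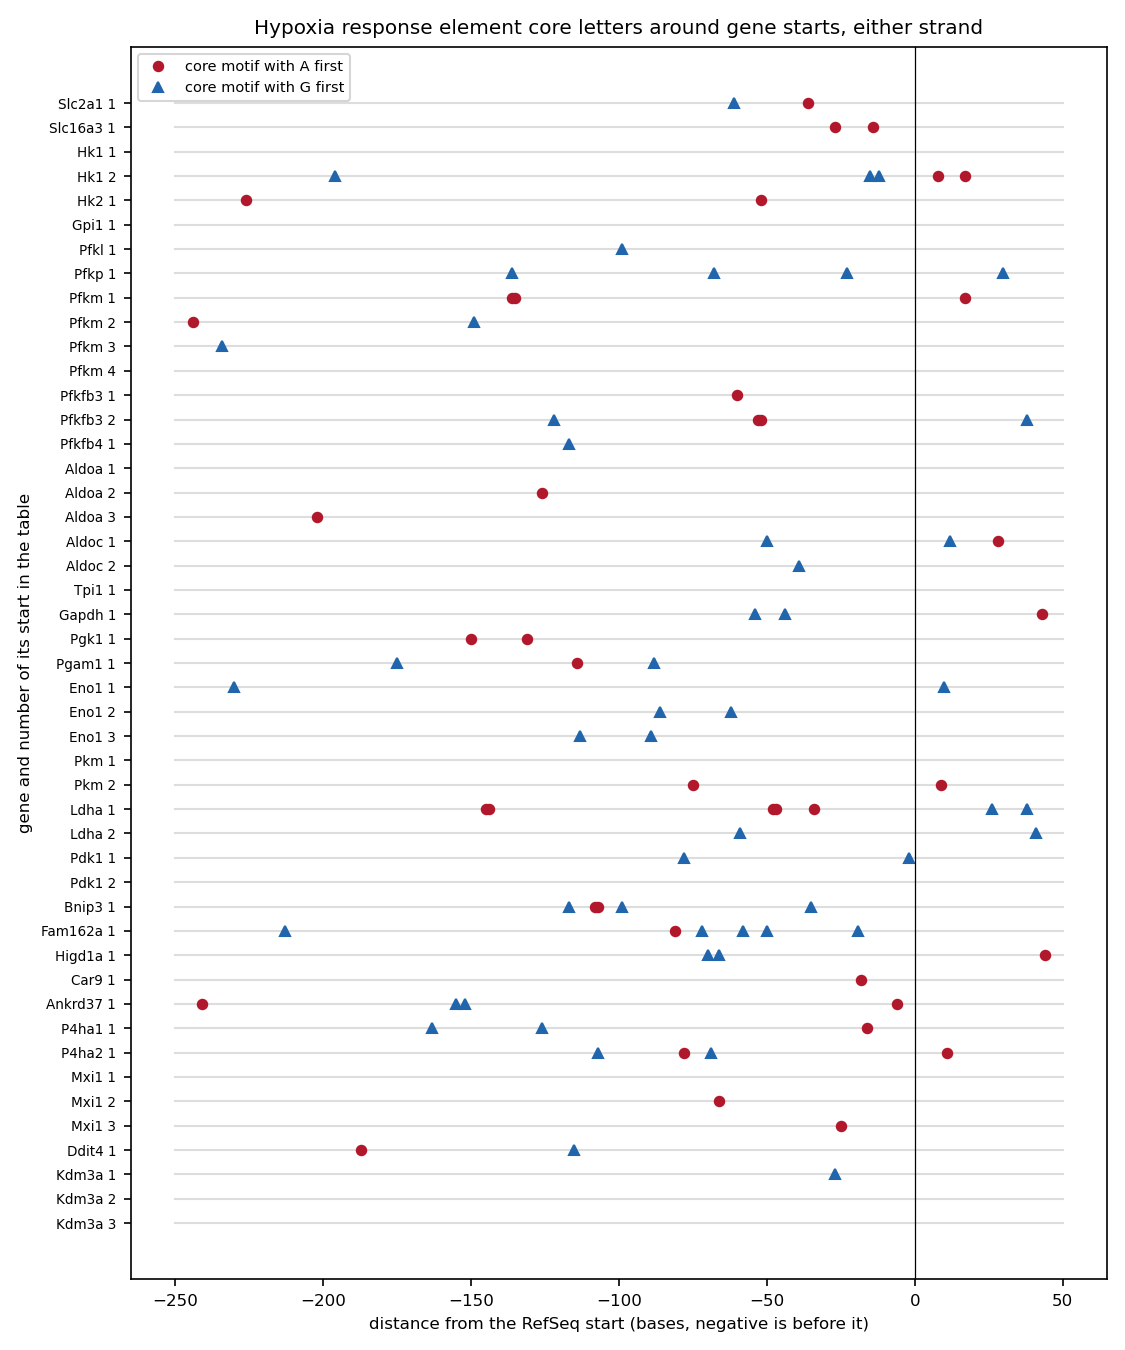
Distance in bases from each RefSeq start (x axis) of the 5-letter core with A first (circles) and with G first (triangles), on either strand, for each window of the 30 members with one (y axis). Of these genes, 28 carry at least 1 symbol, and Gpi1 and Tpi1 carry none.

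The mix of isoenzymes differed between the organs, by the share of each gene within its family (count per exon base, summed over the family). The same gene led in both organs for hexokinase (Hk1), phosphofructokinase (Pfkl), the PFKFB enzymes (Pfkfb3), enolase (Eno1), pyruvate kinase (Pkm) and the collagen prolyl hydroxylases (P4ha1). In vehicle libraries, 28 of the 30 shares that averaged at least 5% differed between the organs without overlap (two-sided exact permutation p = 0.0286 each, the smallest p that 70 groupings allow, adjusted p = 0.0306 over 30 shares). The exceptions were Pfkl and P4ha1. Ldha, the lactate dehydrogenase subunit favoured in lactate-producing tissue, made up 68.4% ± 5.65 in vehicle ovary and 24.3% ± 0.969 in vehicle kidney (n = 4), and Ldhb took the rest apart from a trace of Ldhc. Pgam1, the broadly expressed phosphoglycerate mutase, made up 96.1% ± 0.455 in ovary and 48.4% ± 3.29 in kidney, beside the muscle-type Pgam2. In both of these families the leading gene of the ovary was a member and that of the kidney, by the mean, was not. The lead of Pgam2 was narrow, since Pgam1 held 52.2% and 50.2% in vehicle kidney replicates 1 and 2.

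For transport, Slc2a1 (GLUT1, the basal glucose transporter) made up 86.8% ± 2.94 of the 4 class I glucose transporter genes in vehicle ovary and 35.5% ± 1.12 in vehicle kidney. Slc2a2, the low-affinity transporter of the proximal tubule, took 38.8% ± 1.06 in kidney and 0.107% ± 0.0732 in ovary. Slc16a3 made up 56.4% ± 3.60 of the lactate carriers in ovary and 1.74% ± 0.443 in kidney, where Slc16a7 took 65.6% ± 2.60. At the entry to glycolysis, Hk1 made up 59.0% ± 2.57 of hexokinase in ovary and 95.6% ± 0.731 in kidney, with Hk2 at 39.5% ± 2.51 and 1.62% ± 0.476. At the committed step, the muscle-type phosphofructokinase Pfkm made up 17.3% ± 4.54 in ovary and 34.4% ± 0.963 in kidney, while Pfkl led in both organs. Pdk1, one of the kinases that shut the pyruvate dehydrogenase gate, led in neither organ. It made up 16.9% ± 1.37 in ovary, where Pdk3 took 41.6% ± 1.60, and 8.11% ± 0.376 in kidney, where Pdk2 took 73.2% ± 2.95. Eno1 and Pkm held more than 90% of their families in every library of both organs. Because the tissues were taken whole, fewer cells of a type and less RNA per cell cannot be told apart.

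**Figure D2:**
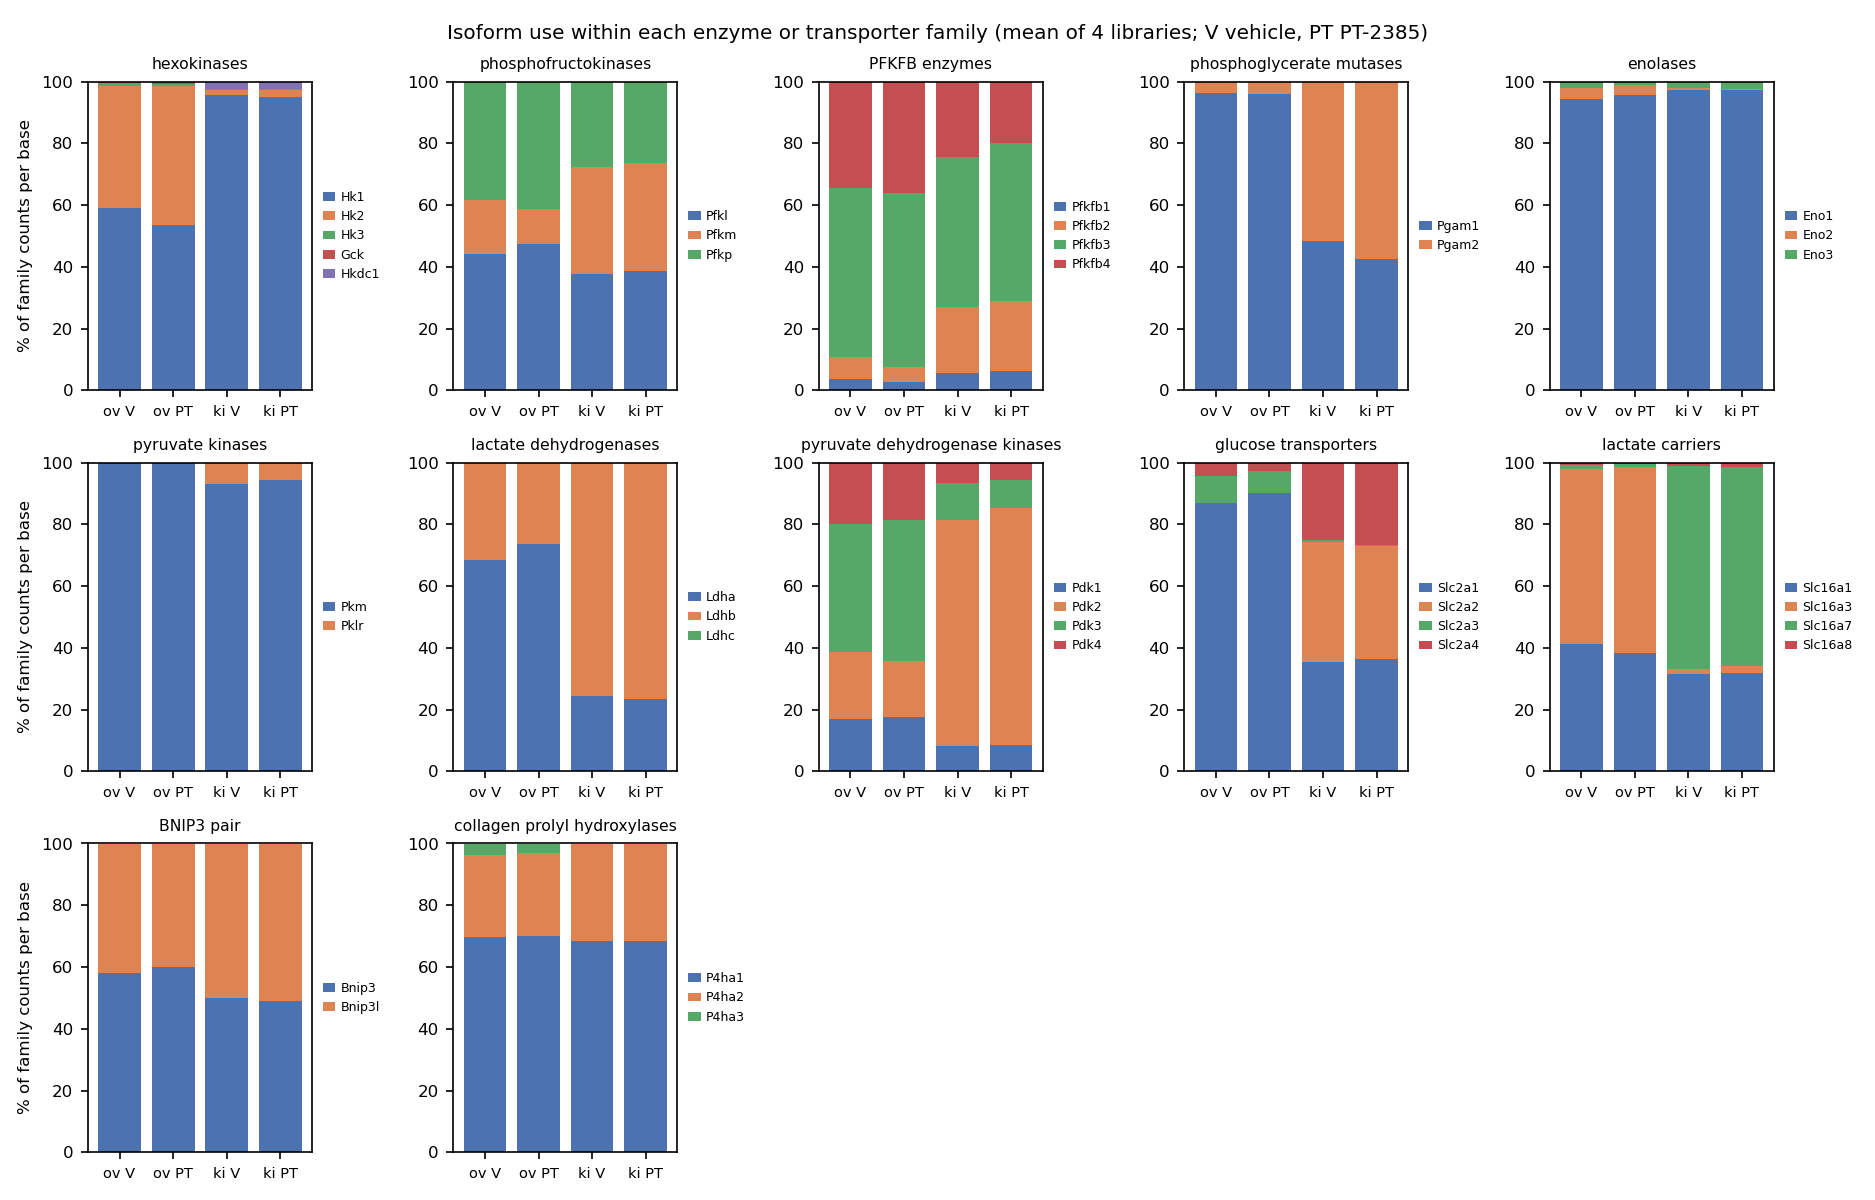
Mean share (y axis, % of family counts per exon base, n = 4 libraries) of each gene in 12 enzyme or transporter families, for ovary (ov) and kidney (ki) with vehicle (V) or PT-2385 (PT). Ldha takes most of the ovary bars and Ldhb most of the kidney bars, with PT-2385 as with vehicle.

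The first test asked whether PT-2385 moved these genes in ovary. None of the 33 members passed an adjusted p of 0.05 (edgeR quasi-likelihood test, Benjamini-Hochberg over the 18125 genes tested), a threshold that 0.0497% of all genes passed. Unadjusted p was under 0.05 for 14 members, 13 with higher and 1 with lower values in PT-2385, against 13.2% of all genes. DESeq2 called 1 member, against 1.78% of all genes, and limma-voom called 0. The log2 fold change was positive for 28 members and negative for 5, with a median of 0.19, against a median of −0.003 and 49.2% positive over all genes. For 6 members every PT-2385 library lay above every vehicle library, against 3.18% of all genes, and for 1 member every one lay below, against 3.77%.

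Among the carriers, Slc2a1 measured 106, 76.2, 116 and 131 CPM in the vehicle ovaries (replicates 1 to 4) and 157, 149, 151 and 133 CPM in the PT-2385 ovaries. All 4 PT-2385 libraries lay above all vehicle libraries, the nearest pair being 131 and 133. The log2 fold change was 0.46 (SE 0.136, edgeR adjusted p = 0.211), short of the threshold. Slc16a3, which exports the lactate that glycolysis leaves, measured 117, 86.1, 142 and 151 CPM with vehicle and 192, 173, 179 and 153 CPM with PT-2385. These groups also did not overlap, by a margin of 151 to 153, and the log2 fold change was 0.49 (SE 0.153, edgeR adjusted p = 0.235). Slc2a3 had a log2 fold change of 0.12.

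In upper glycolysis, 9 of 11 members had positive and 2 negative log2 fold changes, with a median of 0.23. Hk2 measured 82.3, 74.8, 114 and 107 CPM with vehicle and 120, 116, 147 and 115 CPM with PT-2385 (log2 fold change 0.40, SE 0.133, edgeR adjusted p = 0.253). Its PT-2385 libraries all lay above the vehicle libraries, and PT-2385 replicate 3 stood apart at the top. Pfkfb3, which makes fructose-2,6-bisphosphate, the strongest activator of phosphofructokinase, measured 91.9, 89.9, 112 and 110 CPM with vehicle and 123, 125, 137 and 118 CPM with PT-2385. The groups did not overlap, and the log2 fold change was 0.32 (SE 0.0844, edgeR adjusted p = 0.174). Pfkfb4, an enzyme of the same family, measured 40.0, 31.1, 43.8 and 46.2 CPM with vehicle and 55.4, 47.4, 56.0 and 45.6 CPM with PT-2385, which overlap (log2 fold change 0.34, SE 0.115).

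Pfkm went the other way. It measured 36.8, 50.3, 37.7 and 35.7 CPM in the vehicle ovaries and 28.8, 29.4, 26.4 and 31.3 CPM in the PT-2385 ovaries, so that every PT-2385 library was below every vehicle library. The log2 fold change was −0.47 (SE 0.106, edgeR adjusted p = 0.114), which was the smallest p of any member in ovary. DESeq2 called it, with an adjusted p of 0.00992. Pfkl and Pfkp, which encode the other phosphofructokinase subunits, had positive log2 fold changes of 0.24 and 0.25. Markers of skeletal muscle, where Pfkm is abundant, summed to 4.52 CPM or less in every ovary library. Their 5 genes summed to between 2.37 and 3.46 CPM with vehicle and between 3.01 and 4.52 CPM with PT-2385. The part of muscle in the Pfkm values was not tested.

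In lower glycolysis all 6 members had positive log2 fold changes, from 0.12 to 0.36, with none called. Eno1 (enolase) measured 481, 388, 721 and 542 CPM with vehicle and 752, 639, 708 and 639 CPM with PT-2385. Ldha measured 521, 427, 733 and 596 CPM with vehicle and 759, 680, 758 and 686 CPM with PT-2385. In both genes vehicle replicate 3 lay among the PT-2385 libraries and vehicle replicate 2 was the lowest of all. Their log2 fold changes were 0.36 (SE 0.156) and 0.34 (SE 0.136).

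Of the other hypoxia targets, the collagen prolyl hydroxylases had the clearest separation. P4ha2 measured 39.9, 31.9, 42.5 and 42.6 CPM with vehicle and 50.5, 46.7, 46.8 and 48.6 CPM with PT-2385 (log2 fold change 0.30, SE 0.087, edgeR adjusted p = 0.207). P4ha1 measured 183, 146, 192 and 206 CPM with vehicle and 214, 212, 228 and 223 CPM with PT-2385 (log2 fold change 0.27, SE 0.0932, edgeR adjusted p = 0.253). Neither gene's groups overlapped. Car9, the cell-surface carbonic anhydrase and a standard hypoxia marker, had a log2 fold change of 0.34 with overlapping groups, between 7.17 and 9.30 CPM with vehicle and between 8.32 and 12.8 CPM with PT-2385. Besides Pfkm, the members Ankrd37, Ndufa4l2, Aldoc and Kdm3a had negative log2 fold changes between −0.25 and −0.02, all with overlapping groups. The 6 genes of mitochondria and mitophagy, Bnip3 and Bnip3l among them, ranged from −0.25 to 0.19.

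**Figure D3:**
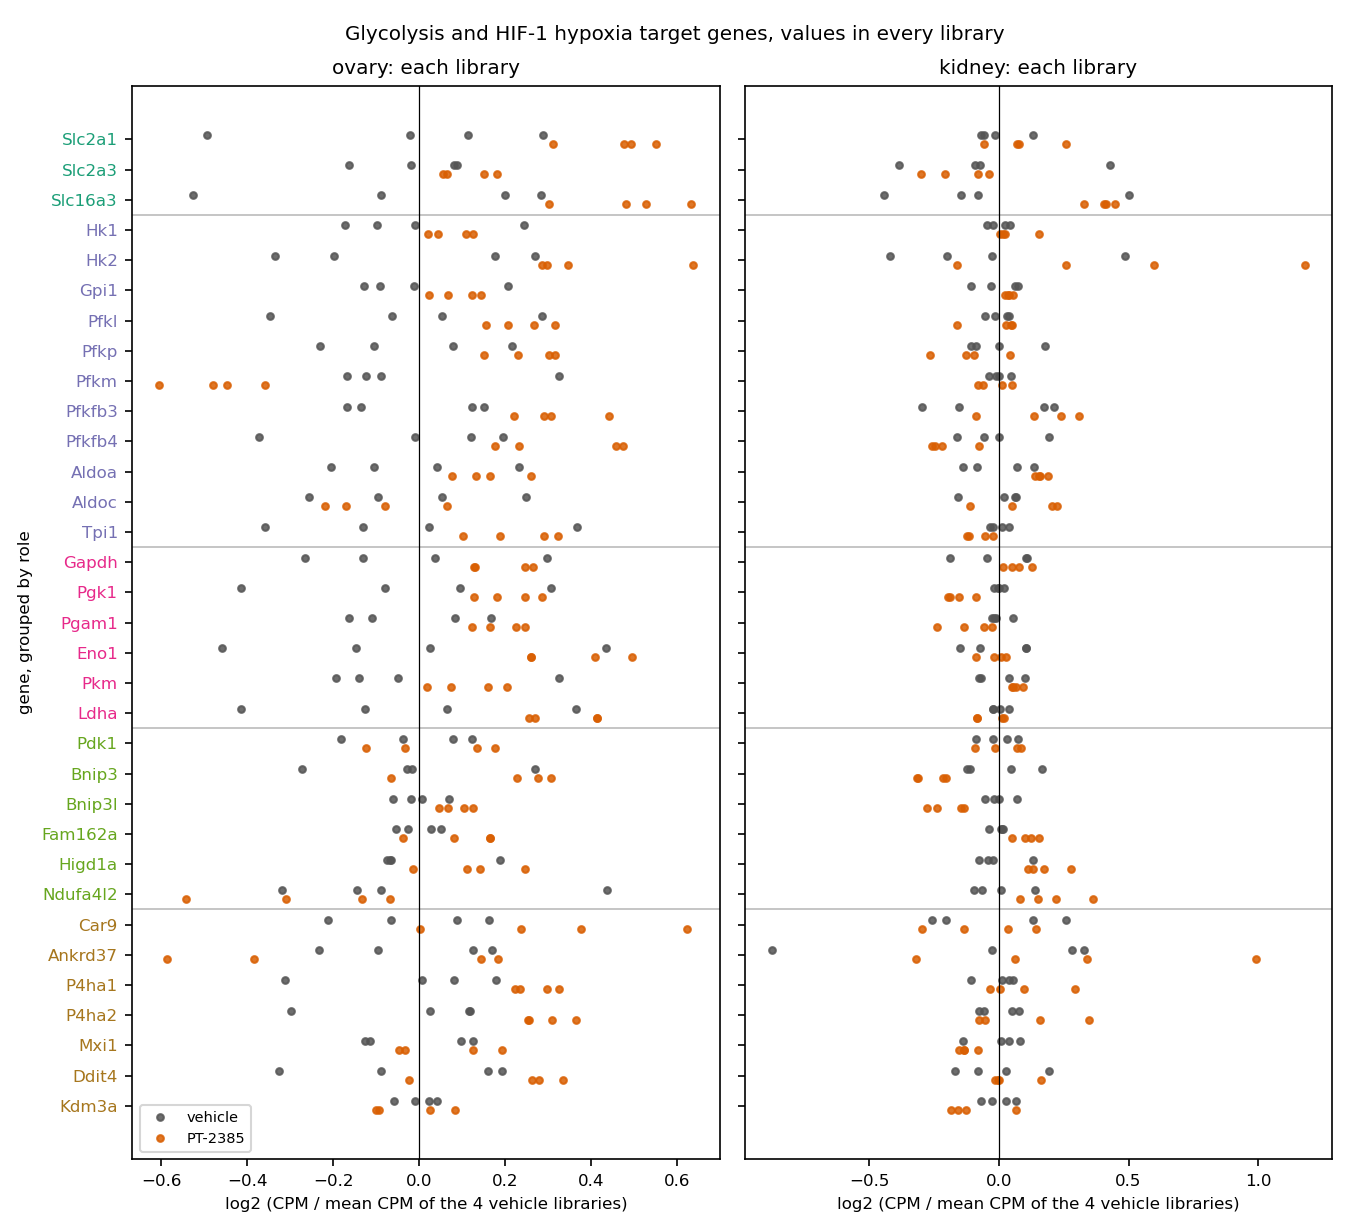
Level of each of the 33 members in each library as log2 of its CPM over the mean CPM of the 4 vehicle libraries of the organ (x axis), for vehicle (grey) and PT-2385 (orange), with genes grouped by role (y axis, label colours). Most ovary rows have the PT-2385 points to the right and a wide vehicle spread, and Pfkm has them to the left without overlap.

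The ovary values leaned on single vehicle libraries. Vehicle replicate 2 was the lowest of the 8 ovary libraries for 25 of the 33 members. Without it the median log2 fold change was 0.11, with 27 members positive. It also held the most Hsd3b1, a steroidogenic enzyme, at 5203 CPM, against between 2343 and 3531 CPM in the other vehicle ovaries and between 1959 and 2546 CPM with PT-2385. Hsd3b1 made most of the theca and stroma marker sum of 5639 CPM in that library. The other markers of that list were split. Cyp17a1 (20.3 CPM) and Dcn (191 CPM) were the highest of the vehicle ovaries there. Pdgfra (225 CPM) and the barely detected Insl3 (0.554 CPM) were the lowest. The luteinising granulosa marker sum was highest there too, at 11305 CPM against between 7639 and 9830 CPM in the other vehicle ovaries. Without vehicle replicate 3 the median was 0.25 and 10 members were called: Eno1, Pfkfb3, Ldha, Pfkp, Tpi1, Pfkl, P4ha2, Pgam1 and Gapdh higher and Pfkm lower. Calls rose across the genome without that library, to 5.9% of all genes. Vehicle replicate 3 held 1366 CPM of the nuclear noncoding RNAs Malat1, Neat1, Xist and Kcnq1ot1, against between 2927 and 3691 CPM in the other vehicle ovaries and between 2341 and 2747 CPM with PT-2385. The 4 collecting duct markers summed to between 16.8 and 24.6 CPM with vehicle and between 32.4 and 34.1 CPM with PT-2385, nearly all of it Aqp2. The part of these markers in the members' values was not tested.

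In kidney 3 members fell with PT-2385 and none rose. They were Bnip3 and Bnip3l, the paired receptors that tag mitochondria for autophagy, and Pgk1, which makes the first ATP of glycolysis. The share of all 17763 genes called lower was 3.7%, and called higher 1.83%. Unadjusted p was under 0.05 for 10 members, 4 higher and 6 lower, against 23.1% of all genes. The log2 fold change was positive for 18 members and negative for 15, with a median of 0.04, against 0.01 over all genes. Every PT-2385 library lay above every vehicle library for 2 members (5.37% of all genes) and below for 4 (7.89% of all genes).

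Bnip3 (ENSMUSG00000078566, chr7:138492565-138511235, minus strand, GRCm39) measured 72.4, 66.5, 59.7 and 59.1 CPM in the vehicle kidneys and 55.5, 56.0, 51.8 and 51.9 CPM in the PT-2385 kidneys. The groups did not overlap. It fell to 0.832 of the vehicle level (log2 fold change −0.26, SE 0.064, edgeR adjusted p = 0.0271). Its exons share 27.2% of their bases with an antisense gene model, Gm45507, which had 0 counts in every library. Bnip3l (ENSMUSG00000022051, chr14:67222688-67246326, minus strand) measured 120, 114, 112.5 and 110 CPM with vehicle and 104, 94.1, 103 and 96.6 CPM with PT-2385. These groups did not overlap either, and the gene fell to 0.873 of the vehicle level (log2 fold change −0.20, SE 0.0484, edgeR adjusted p = 0.029).

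Pgk1 (ENSMUSG00000062070, chrX:105230706-105247305, plus strand) was very even among the vehicle kidneys, at 362, 357, 358 and 354 CPM, and measured 312, 336, 314 and 322 CPM with PT-2385. Every treated library was lower, and the gene fell to 0.897 of the vehicle level (log2 fold change −0.16, SE 0.0433, edgeR adjusted p = 0.0455). In ovary the same 3 genes had positive log2 fold changes, of 0.19, 0.09 and 0.21, with overlapping groups and none called. Pgk1 lost the call in 8 of 16 alternatives, with an adjusted p of up to 0.155 (edgeR). None of the 3 was called without vehicle replicate 2, without PT-2385 replicate 3 or without PT-2385 replicate 4. With those left out in turn the adjusted p (edgeR) of Bnip3 was 0.0894, 0.104 and 0.0918. Bnip3l was also not called without PT-2385 replicate 2 (edgeR adjusted p = 0.0633).

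The members next in order of p did not pass. Higd1a, a hypoxia-induced protein of the respiratory chain supercomplexes, measured 35.0, 35.9, 40.5 and 36.4 CPM with vehicle and 40.4, 40.0, 41.7 and 44.8 CPM with PT-2385 (log2 fold change 0.18, SE 0.0593, edgeR adjusted p = 0.0854). Aldoa measured 734, 763, 849.5 and 888 CPM with vehicle and 901, 923, 901 and 891 CPM with PT-2385 (log2 fold change 0.16, SE 0.0575, edgeR adjusted p = 0.106). The treated libraries of Aldoa all lay above the vehicle libraries, by a margin of 888 to 891, and those of Higd1a overlapped with vehicle replicate 3. Mxi1, a MYC antagonist, measured 77.7, 75.9, 80.1 and 68.7 CPM with vehicle and 71.4, 68.8, 68.9 and 68.0 CPM with PT-2385 (log2 fold change −0.13, SE 0.0522, edgeR adjusted p = 0.160). Pfkfb4 measured 11.4, 10.9, 10.1 and 13.0 CPM with vehicle and 9.56, 10.8, 9.49 and 9.76 CPM with PT-2385 (log2 fold change −0.21, SE 0.0899, edgeR adjusted p = 0.170). Both overlapped. Higd1a was called without vehicle replicate 3 (edgeR adjusted p = 0.0317), where 7.6% of all genes were called. Aldoa was called without vehicle replicate 4 (edgeR adjusted p = 0.0427), where 5.5% were.

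Slc16a3, barely present in kidney, measured 2.21, 2.72, 2.84 and 4.25 CPM with vehicle and 3.98, 4.00, 4.10 and 3.78 CPM with PT-2385, where vehicle replicate 4 exceeded all treated libraries (log2 fold change 0.40, SE 0.169, edgeR adjusted p = 0.169). Without that library Slc16a3 was called (edgeR adjusted p = 0.0249). Hk2 had the largest positive value in kidney, a log2 fold change of 0.54 with an SE of 0.321, from levels between 3.24 and 6.06 CPM with vehicle and between 3.87 and 9.81 CPM with PT-2385. Fam162a, a mitochondrial cell-death protein, had treated libraries between 41.0 and 44.1 CPM, above the vehicle range of 38.6 to 40.0 CPM (log2 fold change 0.11, edgeR adjusted p = 0.204). Pgam1 had the reverse, between 110 and 127.2 CPM with PT-2385 below vehicle libraries between 127.3 and 135 CPM (log2 fold change −0.11, edgeR adjusted p = 0.191).

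**Figure D4:**
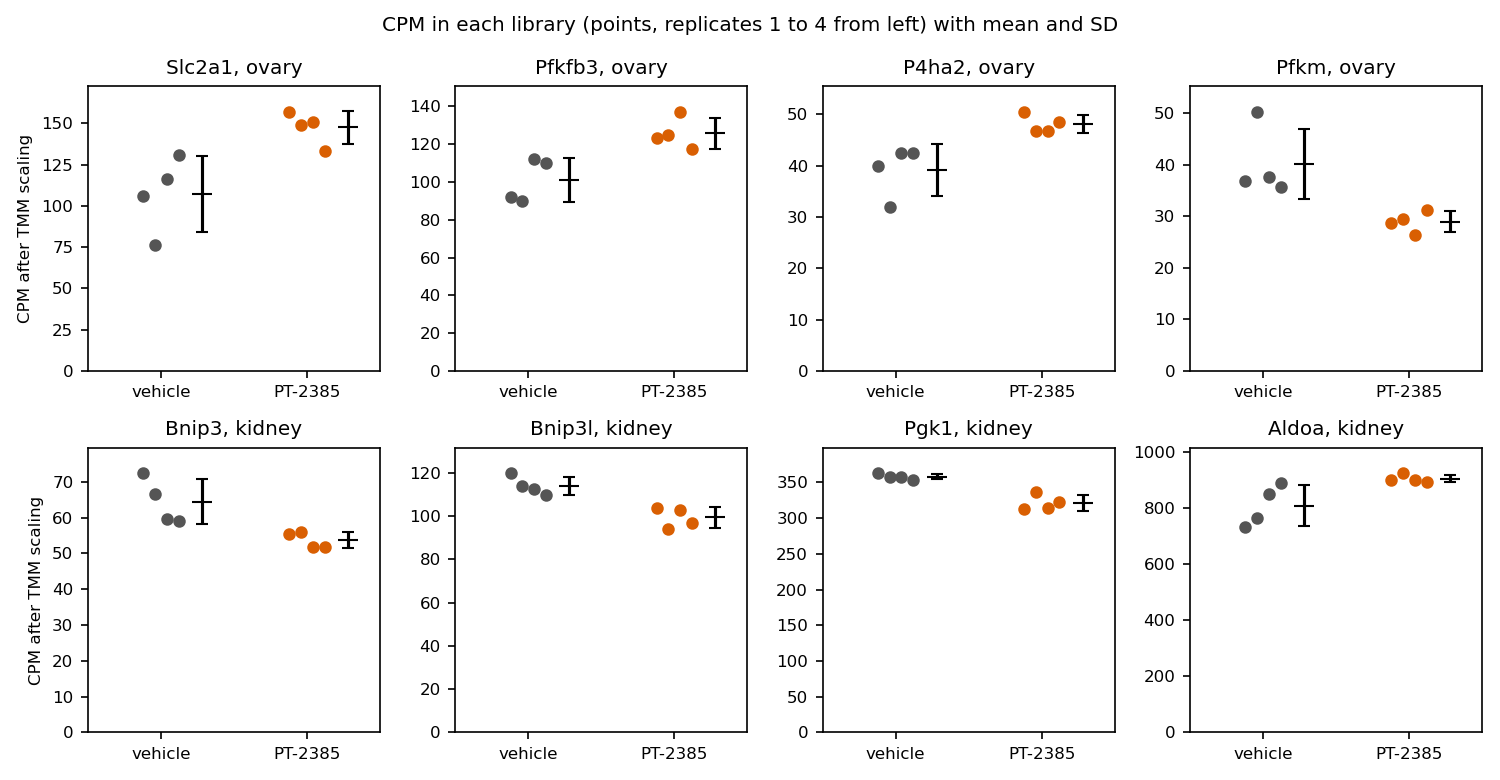
CPM after TMM scaling (y axis, from 0) of 4 members in ovary (top) and 4 in kidney (bottom), each library a point, with mean and SD of the 4 libraries beside it. Bnip3, Bnip3l and Pgk1 lie lower in every PT-2385 kidney, and Pfkm lies lower in every PT-2385 ovary.

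Other signals moved with treatment in the same kidneys. The 4 macrophage markers summed to between 91.5 and 100.2 CPM with vehicle and between 76.1 and 87.0 CPM with PT-2385, without overlap. Of the 4, only Csf1r, the most abundant, was itself without overlap (71.9 to 80.5 and 57.2 to 69.5 CPM). Adgre1, Cd68 and C1qa overlapped. Nuclear noncoding RNAs summed to between 3107 and 3379 CPM with vehicle and between 3467 and 3599 CPM with PT-2385, also without overlap. Taken singly, Malat1, Neat1, Xist and Kcnq1ot1 each overlapped between the groups. Mitochondrial transcripts took between 10.1% and 11.7% of counts with vehicle and between 11.7% and 12.6% with PT-2385. Podocyte markers summed to between 507 and 620 CPM with vehicle and between 611 and 710 CPM with PT-2385. Proximal tubule markers summed to between 19336 and 21666 CPM and between 18078 and 20126 CPM, most of it Kap. Among them Lrp2 (2021 to 2705 and 1690 to 1960 CPM) and Cubn (511 to 704 and 400 to 475 CPM) were lower without overlap. Kap, Slc34a1, Slc5a2 and Slc22a6 overlapped. The part of these signals in the falls of Bnip3, Bnip3l and Pgk1 was not tested.

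A direct test of the difference, the response in ovary minus the response in kidney, passed for none of the 33 members (edgeR, Benjamini-Hochberg over 19977 genes, of which 0.19% passed). Unadjusted p was under 0.05 for 13 members, against 12.0% of all genes. DESeq2 called 2 members, Bnip3l and Pfkm, against 1.52% of all genes, and limma-voom called 0. The median difference over members was 0.19 on the log2 scale, against −0.01 over all genes. By sign alone, 13 members were positive in ovary and negative in kidney, 3 the reverse, 15 positive in both and 2 negative in both. The smallest p belonged to Bnip3l, with a difference of 0.30 (SE 0.0787, edgeR adjusted p = 0.119). Pfkm differed by −0.43 (SE 0.117, adjusted p = 0.130), Pfkfb4 by 0.57 (SE 0.156, adjusted p = 0.139) and Bnip3 by 0.48 (SE 0.139, adjusted p = 0.170, edgeR for all 3).

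All 6 lower-glycolysis genes had a positive difference, from 0.07 for Pkm to 0.40 for Eno1, and none was called. The test turned on ovary vehicle replicate 3. Without that library 10 members were called, namely Ldha, Tpi1, Pgk1, Eno1, Pgam1, Bnip3l, Pfkp, Pfkfb4 and Pfkl with a positive difference and Pfkm with a negative one, against 4.0% of all genes. Without both libraries with deviating file names, a setting added after seeing the data, 6 were called, all positive, against 1.87% of all genes: Bnip3l, Ldha, Tpi1, Eno1, Pgk1 and Pgam1.

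**Figure D5:**
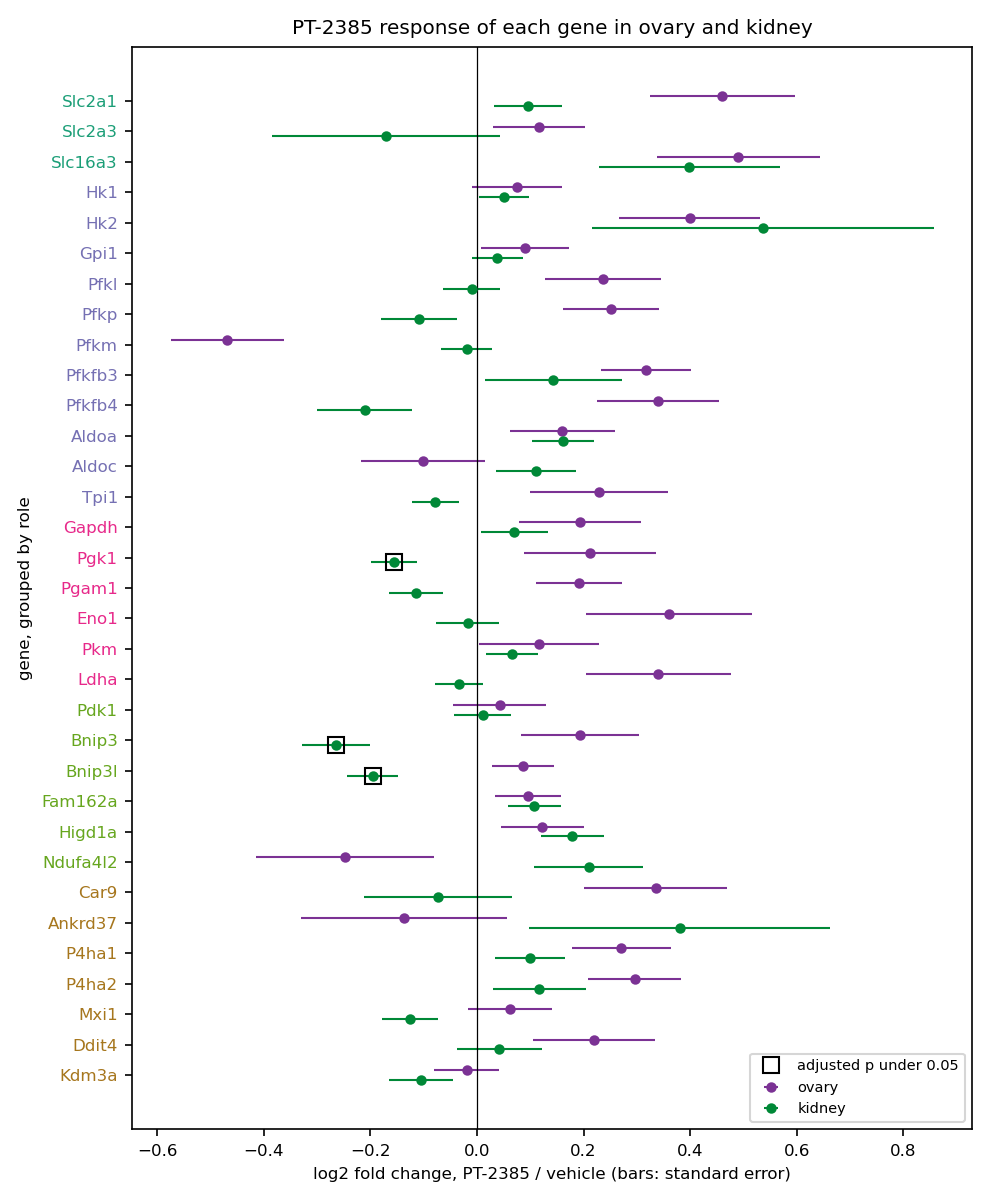
Log2 fold change of PT-2385 over vehicle (x axis) with its standard error for each member (y axis, grouped by role) in ovary (purple) and kidney (green). Squares mark Bnip3, Bnip3l and Pgk1 in kidney, the members with an adjusted p under 0.05, and most ovary points lie right of 0.

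Isoenzyme use within an organ was also compared between treatments. In ovary 4 of 26 shares and in kidney 6 of 30 did not overlap between groups, and none passed after adjustment over both organs (smallest adjusted p = 0.16, exact permutation with 70 groupings). Pfkm made up 16.6%, 23.9%, 13.9% and 14.8% of phosphofructokinase in the vehicle ovaries and 10.8%, 11.9%, 9.92% and 11.8% in the PT-2385 ovaries, always lower. Pfkp was correspondingly higher, at 38.4% ± 1.28 with vehicle and 41.4% ± 1.21 with PT-2385. Slc2a1 made up 86.8% ± 2.94 of the glucose transporters with vehicle and 90.1% ± 0.634 with PT-2385.

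In kidney, Pgam1 made up 48.4% ± 3.29 of its pair with vehicle and 42.7% ± 1.64 with PT-2385. Pkm made up 93.2% ± 0.109 of pyruvate kinase with vehicle and 94.4% ± 0.835 with PT-2385, with Pklr, the liver and kidney form, taking the rest. Each of these had an exact permutation p of 0.0286, the smallest possible. Bnip3 made up 49.9% ± 1.57 of the BNIP3 pair with vehicle and 48.9% ± 1.74 with PT-2385, with overlapping groups (exact permutation p = 0.429).

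Other genes of the pathway were read from a list of 72 that are no members, of which 71 were matched. In ovary none of the 66 tested was called (edgeR), with 12 at an unadjusted p under 0.05, against 13.2% of all genes. The smallest p belonged to Tmem45a, a hypoxia-induced membrane protein, at 21.2, 22.1, 30.7 and 26.1 CPM with vehicle and 38.6, 36.9, 39.5 and 37.6 CPM with PT-2385, without overlap (log2 fold change 0.61, SE 0.104, edgeR adjusted p = 0.0554). Adm, the vasodilator adrenomedullin, followed in the other direction, from 36.2 ± 7.95 to 23.3 ± 1.81 CPM (log2 fold change −0.63, SE 0.135, edgeR adjusted p = 0.109). In kidney 1 of 69 was called higher, Loxl2, against 1.83% of all genes, and 9 were called lower, against 3.7%. Of the 9, 2 belong to gluconeogenesis: Fbp1, fructose-1,6-bisphosphatase, with a log2 fold change of −0.30 (SE 0.0504, edgeR adjusted p = 0.00486), and Pcx, pyruvate carboxylase, with −0.26 (SE 0.051, edgeR adjusted p = 0.0112).

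Slc2a5, the fructose transporter GLUT5, fell from 122 ± 1.29 to 91.2 ± 6.25 CPM in kidney, a log2 change of −0.42 (SE 0.0507, edgeR adjusted p = 0.00114). Pgm1, which links glycogen to glycolysis, fell with a log2 fold change of −0.25, and the mitochondrial adenylate kinase Ak4 with −0.36 (adjusted p = 0.00652 and 0.00961, edgeR). Zfp395, a hypoxia-induced zinc finger gene, fell with −0.33 (edgeR adjusted p = 0.0191). No gene of the list was called in the direct test between organs, with 15 of 71 at an unadjusted p under 0.05, against 12.0% of all genes. Of the factor genes, Hif1a had 384 ± 64.3 and 431 ± 49.1 CPM in ovary and 127 ± 7.26 and 130 ± 4.33 CPM in kidney, with vehicle and PT-2385. Epas1 had 171 ± 15.8 and 165 ± 1.32 CPM in ovary and 195 ± 9.05 and 197 ± 8.14 CPM in kidney. Arnt had 86.8 ± 8.44 and 87.9 ± 4.14 CPM in ovary and 62.0 ± 2.89 and 63.1 ± 2.36 CPM in kidney. None of the 3 passed the test in either organ.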

How the data were processed

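Read pair counts per gene were made by the authors with featureCounts 2.0.6 over exons (GENCODE vM27 basic), per the file headers, after alignment to GRCm39 with STAR, per the submitters' processing notes. Versions of STAR and FastQC are not given in the sources used here. The recorded command sets no strand or multi-mapping option, so antisense neighbours and near-identical copies (several glycolytic genes have processed pseudogenes) could not be separated. Of the members, 14 share exon bases with another gene model and 4 share at least 20% (Bnip3, Ankrd37, Higd1a, Fam162a). Some smaller overlaps are with antisense genes of higher counts. Pfkp shares 17.4% with Pitrm1, which had 4635 to 6374 counts in vehicle ovaries, where Pfkp had at least 3399. Slc16a3 shares 6.88% with Csnk1d, which had 2510 to 3102 counts in vehicle kidneys, where Slc16a3 had as few as 58. Symbols came from GENCODE M21 by identifier (52083 of 55359). Of 2 models named Aldoa, ENSMUSG00000030695 was used.

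Each organ was tested with edgeR 4.0.16 (quasi-likelihood, robust, TMM, filterByExpr, R 4.3.3) over all genes, and the difference between organs over all 16 libraries, with Benjamini-Hochberg adjustment at 0.05. The tests were tested on simulated data first. CPM are scaled within the organ, and RPKM divides CPM by exon length. Family shares were compared by exact two-sided permutation. Alternatives were 2 other scalings, 2 other filters, DESeq2 1.42.0, limma-voom 3.58.1, a replicate block, a fit without mitochondrial and haemoglobin genes and each library left out. The members and lists were chosen with earlier results of these data known. Values in every library are given for called members and, up to 8 per organ, those with the smallest p. Of genes that are no members, at most 6 called per organ, or the 2 with the smallest p, are given. Car9, Eno1, Ldha, Fam162a and Pgam1 were added after their values were seen. Replicates differed beyond sampling noise in every pair. Promoter windows are from RefSeq (GRCm38.p6), whose coordinates are not those of the count files. Shares within 1 family are counted in the totals of tested shares but not reported here.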

Additional observations from a re-analysis of the deposited data

Results flagged for a closer look

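A library far from the other 3 of its group was found in 5 of 88 groups of values checked, and chance alone picks out about 1 in 20 such groups. Pfkm measured 50.3 CPM in ovary vehicle replicate 2, above 35.7 to 37.7 CPM in the other vehicle ovaries. Hk2 measured 146.7 CPM in ovary PT-2385 replicate 3, above 115 to 120 CPM in the others. Slc2a1 took 91.0% of the glucose transporters in ovary PT-2385 replicate 1, slightly above the rest. Slc16a7 took 65.4% of the lactate carriers in kidney PT-2385 replicate 3. Bnip3 took 56.4% of the BNIP3 pair in ovary PT-2385 replicate 4, below the others.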

How the results depend on the processing

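The 8 members given by library in each organ, and the 5 differences between organs tried (Bnip3, Bnip3l, Pfkfb4, Pfkm, Pgk1), kept their sign under every alternative run. In ovary the number of members called was 2 without a filter on low counts, 1 with DESeq2 and 3 with a replicate block (Pfkm, Hk2 and Pfkfb3), and ranged from 0 to 10 when 1 library was left out. In kidney it ranged from 0 to 4 when 1 library was left out, and the median log2 fold change from 0.00371 to 0.0631. For the difference between organs it was 2 without a filter, 2 with DESeq2, 1 with the replicate block, 6 without both libraries with deviating file names, and from 0 to 10 with 1 library left out. Same-numbered deviations correlated between −0.172 and 0.236 in ovary and between −0.064 and 0.0522 in kidney. Differently numbered libraries were not compared, so these values cannot decide whether the replicate numbers pair the samples. Pairing of ovary with kidney libraries by animal was not tested, and the main test between organs treated all libraries as independent. Under the block Pgk1 in kidney had an adjusted p of 0.0519 (edgeR). With families cut to the listed members, 2 ovary, 0 kidney and 11 vehicle shares between organs did not overlap. Fewer shares were tested there, and shares in families that lost genes were taken over a smaller sum. These 2 changes were not told apart, so some separations may depend on the genes that are no members. Leaving out 1 library gave 4 to 11, 6 to 8 and 28 to 30. The members' share of counts without mitochondrial and haemoglobin genes was 0.769% in vehicle and 0.803% in PT-2385 kidneys. The causes were not tested. Over all genes, 1 higher and 8 lower calls in ovary became 105 and 225 without a filter, 124 and 198 with DESeq2, 136 and 259 with the block, 0 and 3 with limma-voom, and from 0 to 606 and from 0 to 484 with 1 library left out. In kidney 325 and 657 became 712 and 1049 without a filter and from 50 to 550 and from 190 to 820 with 1 left out. For the difference, 32 and 6 became 102 and 65, 184 and 120, and 122 and 141 under the first 3 of these, and from 0 to 498 and from 0 to 315 with 1 left out. The 4 lowest members in kidney (Hk2, Slc16a3, Slc2a3 and Ankrd37) have standard errors between 0.169 and 0.321.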
